A study of Arabidopsis thaliana with 9 samples.

Results

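The 9 transcription factor genes described here answer early to cold, wounding or reactive oxygen, and were followed through every library of the study. They were chosen by name, as well-known representatives of 4 families, with earlier results of these data known. Together they make up 9 of the 33602 genes in the files. All 9 had a value in each library. They are the cold-responsive activators CBF1 (AT4G25490), CBF2 (AT4G25470) and CBF3 (AT4G25480), the zinc finger repressors ZAT10 (AT1G27730) and ZAT12 (AT5G59820), the defence regulators WRKY33 (AT2G38470) and WRKY40 (AT1G80840), and the ethylene response factors ERF5 (AT5G47230) and ERF6 (AT4G17490).

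RNA was sequenced from 9-day-old Arabidopsis thaliana seedlings on 1/2 MS medium with 2% sucrose, in 3 groups of 3 libraries. The group tt19-8 carries a knock-out of TT19, the glutathione S-transferase gene that anthocyanin accumulation needs. The lines OE1 and OE2 overexpress CsGSTF1, a glutathione S-transferase of the tea plant, and by its title the series concerns the rescue of the pigment defect of tt19-8. The labels give neither the promoter of the transgene nor, for each overexpressing library, whether the plants also carry the tt19-8 allele, and they name no cold, wound or other stress treatment. They do not state that replicates were grown separately, so p-values measure the spread between these samples, which may be technical.

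Values are FPKM, fragment counts scaled by gene length and by library size, so that levels can be compared between genes. Low values of OE1 and tt19-8 lay on steps of whole fragments, which gave 48.9 M to 57.6 M fragments per library. These totals rest on annotated gene lengths. In OE1 replicate 1 and tt19-8 replicate 2 another total fitted the steps nearly as well (strength 0.508 against 0.490, and 0.543 against 0.526). OE2 values showed no such steps, so the depth of OE2 is unknown. In no gene did an OE2 library fall below 0.6 times the OE1 library of the same number, among 21905 to 22196 genes above 0 in OE1, whereas against an OE1 library of another number 2684 to 3590 genes did. The OE2 and OE1 libraries are therefore linked number by number, and OE2 values are not independent of the same-numbered OE1 values. The origin of that link was not tested. The link bears on every OE2 result given here. In tt19-8 replicate 3, the log2 ratios of 2329 well-expressed genes spread less against the OE1 libraries (SD 0.27 to 0.35) than against tt19-8 replicates 1 and 2 (SD 0.53 and 0.58), and results that rest on it are also given without it. TT19 itself was at 0 to 0.113 FPKM in the tt19-8 and OE1 libraries and at 0.674 to 0.876 FPKM in OE2. Summed over all genes, OE2 libraries held 867529 to 912535 FPKM, against 1032370 to 1096075 in the OE1 and tt19-8 libraries. Sums of markers are not corrected for this lower total, whose part in them was not tested. Summed leaf markers ran from 15896 to 22321 FPKM in OE2, 21174 to 30690 in OE1 and 23404 to 27633 in tt19-8. Of 5 root markers 4 were above 0 in every library and IRT1 was at 0 in all. The root sum ran from 946 to 1008 FPKM in OE2, 1088 to 1181 in OE1 and 839 to 1309 in tt19-8, and the part of tissue makeup in the results was not tested.

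The CBF proteins are AP2-domain activators that bind the C-repeat element CCGAC in cold-regulated genes. Their own genes are nearly silent in warm-grown plants, and are induced within minutes of cold or touch by factors such as the calmodulin-binding CAMTA proteins. ZAT10 and ZAT12 are C2H2 zinc finger proteins with a repressor motif, and ZAT12 transcripts are a common marker of reactive oxygen, light stress and wounding. WRKY33 activates camalexin synthesis against fungi, WRKY40 tempers defence and abscisic acid responses, and both bind W-boxes, whose core is TTGAC. ERF5 and ERF6 bind the GCC box, GCCGCC, and act downstream of MAP kinases in defence, oxidative and osmotic stress.

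The 3 CBF genes stand in 1 cluster on chromosome 4, in the order CBF2, CBF3, CBF1, all on the reverse strand and each a single exon. The cluster spans 7747 bases, with 1774 bases between CBF2 and CBF3 and 2379 bases between CBF3 and CBF1. Their coding sequences are 87.5% identical between CBF1 and CBF2, 86.9% between CBF1 and CBF3 and 87.5% between CBF2 and CBF3, so how fragments were assigned among them can matter. ERF5 and ERF6 coding sequences share 74.5% of aligned bases. CBF3, WRKY33 and WRKY40 overlap genes on the other strand, CBF3 by 29 bases of AT4G07385 and WRKY40 by 51 bases of AT1G80850. WRKY33 overlaps AT2G08965 by 272 bases and AT2G38480 by 26 bases. The sources used here do not say that counting used strand.

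The 300 bases before the annotated start of 4 members are shown, for ZAT12 because it was the member that changed, for CBF2 because its values were higher in OE2 than in both other groups, and for WRKY33 and ZAT10 because they were the most abundant members. They were read from the TAIR10.1 genome of RefSeq and are written in the direction of the gene. Capitals mark the motifs searched on both strands, which were TTGAC (W-box core), GCCGCC (GCC box), CCGAC (C-repeat core), CGCGTT (rapid stress response element) and CACGTG (G-box).
ZAT12, chr5:24102514-24102813, forward strand: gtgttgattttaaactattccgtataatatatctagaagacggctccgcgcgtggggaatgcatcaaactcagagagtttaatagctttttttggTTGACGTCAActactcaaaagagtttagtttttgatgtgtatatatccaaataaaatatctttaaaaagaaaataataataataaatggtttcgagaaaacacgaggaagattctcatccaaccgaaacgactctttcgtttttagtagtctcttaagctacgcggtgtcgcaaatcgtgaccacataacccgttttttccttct
CBF2, chr4:13016236-13016535, reverse strand: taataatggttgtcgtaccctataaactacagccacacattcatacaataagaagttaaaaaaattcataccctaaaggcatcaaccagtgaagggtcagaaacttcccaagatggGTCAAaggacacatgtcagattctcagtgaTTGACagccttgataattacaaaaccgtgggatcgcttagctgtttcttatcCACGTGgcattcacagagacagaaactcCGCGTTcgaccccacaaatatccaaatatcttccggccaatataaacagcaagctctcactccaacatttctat
WRKY33, chr2:16107935-16108234, forward strand: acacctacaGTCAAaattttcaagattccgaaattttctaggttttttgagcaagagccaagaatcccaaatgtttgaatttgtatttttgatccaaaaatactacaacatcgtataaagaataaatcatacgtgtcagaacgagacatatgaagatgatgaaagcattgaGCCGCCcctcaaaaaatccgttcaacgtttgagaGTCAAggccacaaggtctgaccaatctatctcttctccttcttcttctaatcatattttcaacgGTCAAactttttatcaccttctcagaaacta
ZAT10, chr1:9649324-9649623, reverse strand: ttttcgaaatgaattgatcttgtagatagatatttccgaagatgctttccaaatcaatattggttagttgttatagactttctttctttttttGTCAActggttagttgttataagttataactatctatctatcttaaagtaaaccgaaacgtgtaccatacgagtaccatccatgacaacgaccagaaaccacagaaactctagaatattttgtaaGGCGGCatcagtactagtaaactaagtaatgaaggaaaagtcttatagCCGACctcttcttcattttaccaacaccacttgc
In ZAT12 the capitals are 2 W-box cores that face each other without a gap, 196 to 205 bases before the start. CBF2 held 2 W-box cores, 1 G-box at 97 to 102 bases and 1 rapid stress response element at 69 to 74 bases before the start. WRKY33 held 3 W-box cores and 1 GCC box, and ZAT10 held 1 each of W-box core, GCC box and C-repeat core.

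Over all 9 members the W-box core was in 6 windows, against 50.4% of the 26711 promoters searched. The GCC box was in 2 members and 2.24% of promoters, and the C-repeat core in 4 members and 13.8% of promoters. The rapid stress response element and the G-box were each in CBF2 alone, against 3.10% and 7.18% of promoters. CBF1 and CBF3 held none of the 5 motifs in this window. The annotated start lies 434 bases before the coding start in CBF1, 397 in CBF3 and 149 in CBF2. These windows thus lie at different distances from the coding sequence, and the part of this in the contrast was not tested. The window of ERF5, counted for the W-box and C-repeat cores, overlaps the neighbouring gene AT5G47229.

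Levels of the 9 genes spanned over 3 orders of magnitude per length. WRKY33 was the most abundant in each group, at 41.6 ± 10.04 FPKM (SD, n = 3) in tt19-8, followed by ZAT10 at 21.0 ± 6.41 and ERF6 at 3.82 ± 1.29. WRKY40 (1.96 ± 1.48 FPKM) and ERF5 (1.28 ± 0.556 FPKM) came next in tt19-8 and differed by less than their spread. ZAT12 and CBF3, at 0.407 ± 0.205 and 0.555 ± 0.129 FPKM, could not be ordered beyond their spread either. CBF2 and CBF1 were lowest, at 0.0635 ± 0.0764 and 0.00721 ± 0.0125 FPKM. In OE2, ZAT12 at 3.36 ± 0.994 FPKM stood next to ERF6 at 3.54 ± 0.260, a pair that differed by less than its spread, and above ERF5 and WRKY40.

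**Figure D1:**
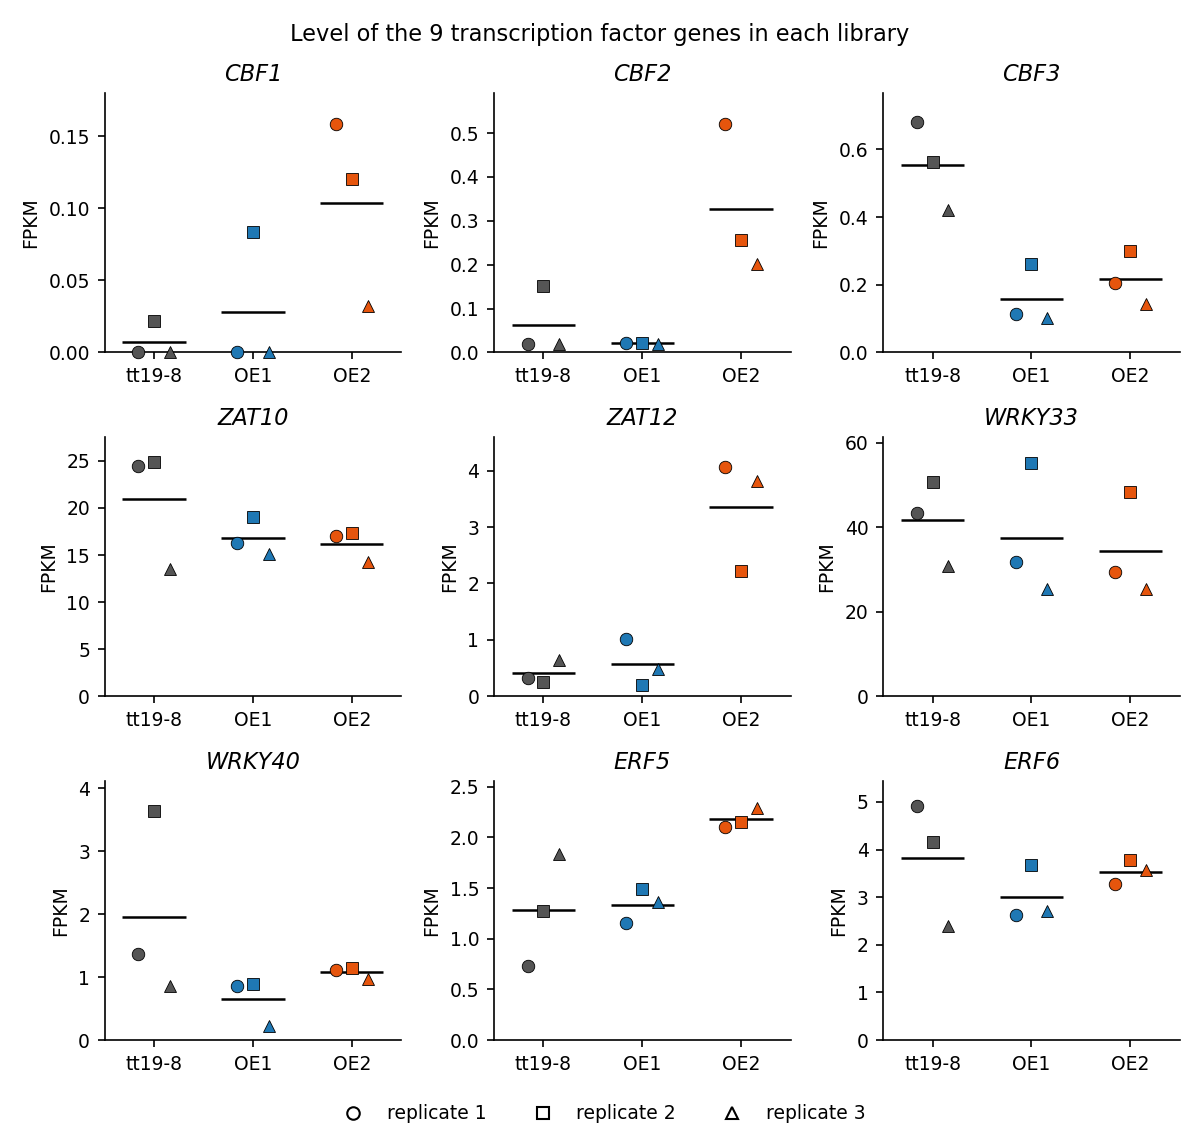
FPKM of each gene in the 3 libraries of tt19-8, OE1 and OE2, with the marker shape giving the replicate number and the line the group mean, on axes that start at 0 and differ between genes. The OE2 libraries of ZAT12 sit between 2.23 and 4.06 FPKM, above every other library, while WRKY33 and ZAT10 overlap between groups.

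ZAT12 (chromosome 5, 24102814 to 24103794, forward strand, 1 exon) was the member that rose. Its level was 4.06, 2.23 and 3.81 FPKM in OE2 replicates 1, 2 and 3. In tt19-8 the libraries read 0.331, 0.251 and 0.639 FPKM. OE1 gave 1.01, 0.193 and 0.492 FPKM. Every OE2 library was above every library of the other groups, and OE1 and tt19-8 overlapped. The mean in OE2 was 8.27 times that in tt19-8. On the log2(FPKM + 1) scale ZAT12 rose by 1.62 ± 0.23 (SE, limma) in OE2 against tt19-8, with a 95% interval of 1.11 to 2.12 and an adjusted p of 0.00339. That change was above those of 99.5% of the 18232 genes tested. Because bulk seedlings were sequenced, more cells with ZAT12 transcripts and more transcripts per cell cannot be told apart.

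Of the 6 members tested in OE2 against tt19-8, ZAT12 alone was called at an adjusted p under 0.05, where 13.9% of all genes were called (4.08% higher and 9.8% lower). ZAT12 passed the filter of 1 FPKM in 3 libraries through the 3 OE2 libraries and OE1 replicate 1, so its passing depended on the group where it was high. The call held in all 12 alternatives in which ZAT12 was tested, with adjusted p between 0.000715 and 0.0274, and without tt19-8 replicate 3 it was 0.00204. By annotated length the tt19-8 values stand for about 12 to 36 fragments.

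Between the overexpressing lines, ZAT12 in OE2 was 4.02, 11.5 and 7.74 times the same-numbered OE1 library. The log2 change was 1.49 ± 0.26 with an adjusted p of 0.0558 by limma, so that 0 of the 6 members were called, where 1.73% of all genes were (1.37% higher and 0.362% lower). With the replicate number in the fit the adjusted p was 0.0025, and 66.5% of all genes were then called. In OE1 against tt19-8 the log2 change of ZAT12 was 0.13 ± 0.25 (95% interval -0.41 to 0.67, limma adjusted p 0.818).

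ZAT10 (chromosome 1, 9648021 to 9649323, reverse strand, 1 exon), the other zinc finger repressor, was not called in either line. OE1 libraries read 16.3, 19.0 and 15.1 FPKM. OE2 libraries read 17.0, 17.3 and 14.3 FPKM. The tt19-8 libraries read 24.4, 24.9 and 13.6 FPKM, so that replicates 1 and 2 were the highest of all 9 libraries and replicate 3 the lowest. The log2 change was -0.26 ± 0.24 in OE1 (limma adjusted p 0.608) and -0.31 ± 0.23 in OE2 against tt19-8 (adjusted p 0.371). Without tt19-8 replicate 3 the change in OE2 was -0.58 ± 0.16 with a limma adjusted p of 0.0235, which passed the threshold. In OE1 the same omission gave -0.53 ± 0.18 and an adjusted p of 0.0892.

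**Figure D2:**
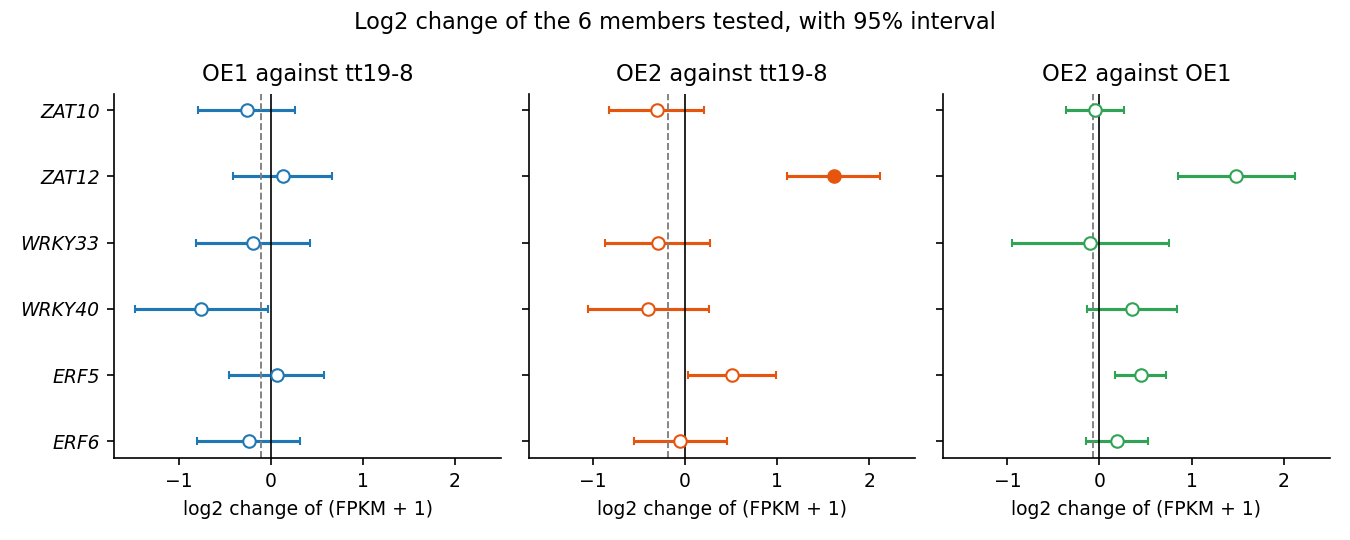
Log2 change of (FPKM + 1) for the 6 members tested in each comparison, with 95% intervals from limma. The filled point passed an adjusted p of 0.05 and open points did not, and the dashed line is the median of all 18232 genes. ZAT12 in OE2 against tt19-8 is the filled point, at 1.62.

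None of the 6 members tested was called in OE1 against tt19-8, where limma called 0% of all genes and 14% had an unadjusted p under 0.05. WRKY40 was the member with an unadjusted p below that level, at 0.0431. The limma 95% interval of WRKY40 was -1.48 to -0.03 on the log2 scale, and those of the other 5 members lay between -0.82 and 0.67 and included 0. These members' comparison with OE1 and that with OE2 share the tt19-8 libraries.

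WRKY33 (chromosome 2, 16108235 to 16110766, forward strand, 5 exons) varied more within each group than between groups. Its levels were 31.7, 55.3 and 25.3 FPKM in OE1, and 29.4, 48.4 and 25.3 FPKM in OE2. The tt19-8 libraries gave 43.3, 50.7 and 30.8 FPKM. In each group replicate 2 was highest and replicate 3 lowest, and all groups overlapped. The log2 change against tt19-8 was -0.20 ± 0.28 in OE1 and -0.29 ± 0.26 in OE2 (limma adjusted p 0.753 and 0.447). Without tt19-8 replicate 3 they were -0.39 and -0.49 (adjusted p 0.394 and 0.16).

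WRKY40 (chromosome 1, 30383561 to 30385499, forward strand, 4 exons) was low and spread in tt19-8, where it read 1.37, 3.64 and 0.859 FPKM. OE1 libraries gave 0.855, 0.896 and 0.216 FPKM and OE2 libraries 1.11, 1.14 and 0.970 FPKM. Replicate 2 of tt19-8 was the highest library and OE1 replicate 3 the lowest. Against tt19-8 the log2 change was -0.75 ± 0.33 in OE1, with a limma adjusted p of 0.343, and -0.40 ± 0.30 in OE2, with an adjusted p of 0.366. Without tt19-8 replicate 2 the changes were -0.37 in OE1 and -0.02 in OE2, and without replicate 3 they were -1.03 and -0.68 (limma adjusted p 0.082 and 0.0917). In OE2 against OE1 the groups did not overlap, with a change of 0.35 ± 0.20 and an adjusted p of 0.484. Both WRKY members gave intervals that include 0 in OE2 against tt19-8, from -0.86 to 0.28 for WRKY33 and from -1.06 to 0.26 for WRKY40.

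ERF5 (chromosome 5, 19179881 to 19181182, forward strand, 1 exon) was at 2.105, 2.15 and 2.29 FPKM in the OE2 libraries. It was at 1.16, 1.49 and 1.36 FPKM in OE1 and at 0.728, 1.27 and 1.84 FPKM in tt19-8. All OE2 libraries were above all others, by 1.7 times tt19-8 in the mean. Its log2 change was 0.51 ± 0.22 in OE2 against tt19-8, with a limma adjusted p of 0.13 and an unadjusted p of 0.0397. An unadjusted p under 0.05 was found for ZAT12 and ERF5 of the 6 members in that comparison, and for 33.6% of all genes. Without tt19-8 replicate 3, the highest of its group, the change was 0.68 ± 0.21 and passed the threshold at an adjusted p of 0.0325. Against OE1 the change was 0.45 ± 0.11 with a limma adjusted p of 0.112, and 0.00831 with the replicate number in the fit. In OE1 against tt19-8 it was 0.06 ± 0.24 (adjusted p 0.914).

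ERF6 (chromosome 4, 9752824 to 9754161, reverse strand, 1 exon), the closest relative of ERF5 among the members, gave 3.27, 3.79 and 3.57 FPKM in OE2. Its OE1 levels were 2.62, 3.68 and 2.71 FPKM, and the tt19-8 levels 4.91, 4.16 and 2.40 FPKM. The OE2 libraries fell inside the range of tt19-8, whose replicate 3 was the lowest of all. The log2 change against tt19-8 was -0.24 ± 0.26 in OE1 and -0.05 ± 0.23 in OE2 (limma adjusted p 0.662 and 0.896). Without tt19-8 replicate 3 they were -0.47 and -0.28 (adjusted p 0.209 and 0.265).

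Among the 6 tested members, ZAT12 and ERF5 had OE2 libraries wholly above those of tt19-8, where 9.35% of all genes did, and none had them wholly below, where 27.7% did. In OE2 against OE1 the groups did not overlap for ZAT12, WRKY40 and ERF5, all higher in OE2, as for 7.04% of all genes. No tested member was free of overlap in OE1 against tt19-8, where 4.14% of all genes were higher and 13.3% lower without overlap. In tt19-8 replicate 3 was the lowest of its group for ZAT10, WRKY33, WRKY40 and ERF6 and the highest for ZAT12 and ERF5. Over all genes it was lowest in 47.2% and highest in 30.0%.

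**Figure D3:**
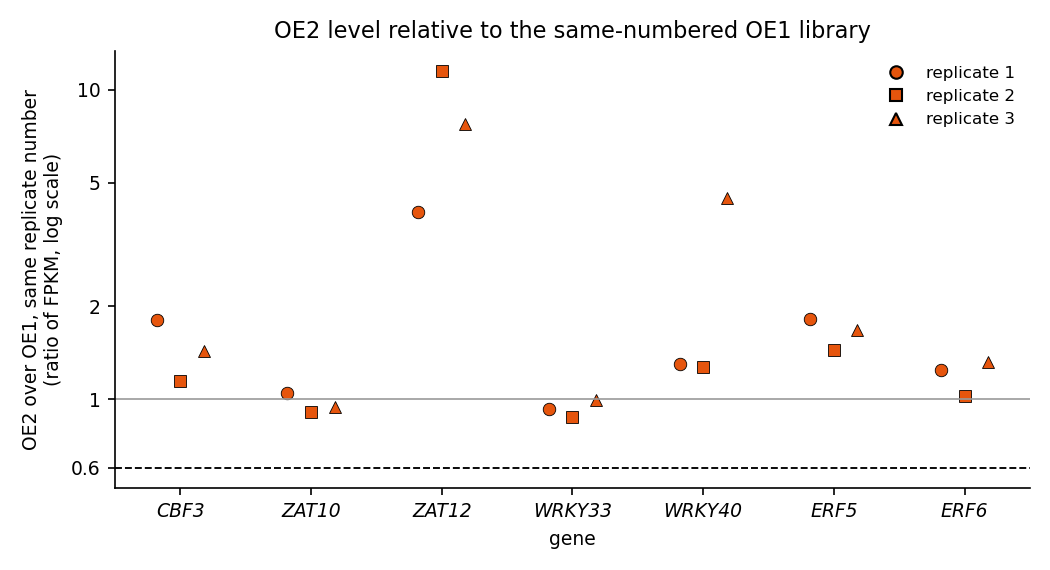
Ratio of FPKM in each OE2 library to the OE1 library of the same number, on a log scale, for the 7 members with more than 3 fragments in every OE1 library. The dashed line is the ratio of 0.6 below which no gene fell. ZAT12 lies at 4.02 to 11.5, ERF5 at 1.44 to 1.82, WRKY40 at 1.27 to 4.48, and WRKY33 and ZAT10 between 0.876 and 1.04.

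The CBF genes were low in all 9 libraries. By the steps, CBF1 and CBF2 held 0 to 7 fragments in the OE1 and tt19-8 libraries, and CBF3 held 5 to 32. For OE2 no fragment numbers are known. No CBF gene reached 1 FPKM anywhere, so none passed the filter and the fit did not test them. Fragment numbers given for them follow from the steps, which imply lengths of 942, 940 and 904 bases for CBF1, CBF2 and CBF3 where the annotation has 1217, 986 and 1391. CBF1 (chromosome 4, 13021780 to 13022996) was listed at 0, 0.0834 and 0 FPKM in OE1 and at 0, 0.0216 and 0 FPKM in tt19-8, steps of 4 fragments and 1 fragment in the replicate 2 libraries. Its OE2 values were 0.158, 0.1202 and 0.0323 FPKM, above every tt19-8 library but overlapping OE1. Among genes tested, 9.35% were higher in OE2 than in tt19-8 without overlap. An exact two-sided permutation test of CBF1 gave p = 0.1 for OE2 against tt19-8 and 0.2 for OE2 against OE1. When limma was run without the filter, the adjusted p of CBF1 was 0.162 in OE2 against tt19-8 and 0.540 in OE2 against OE1. Counting error alone allows up to 0.0553 to 0.0652 FPKM where CBF1 was at 0, the level of 3 fragments.

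CBF2 (chromosome 4, 13015250 to 13016235) gave 0.521, 0.256 and 0.202 FPKM in OE2, above every other library. OE1 read 0.0218, 0.0209 and 0.0193 FPKM, 1 fragment in each library. In tt19-8 it read 0.0204, 0.152 and 0.0184 FPKM, which is 1, 7 and 1 fragments. An exact two-sided permutation test of OE2 against each other group gave p = 0.1, the smallest that 3 against 3 libraries allow. Against OE1 that test took no account of the link between same-numbered libraries, which it treated as free to change places. When limma was run without the filter, the adjusted p of CBF2 was 0.123 in OE2 against tt19-8 and 0.131 in OE2 against OE1. No fold is given because the OE1 libraries lie under the 3-fragment floor. The OE2 libraries list 23614 to 23915 genes above 0, against 21905 to 22520 in the OE1 and tt19-8 libraries. Genes at or near 0 elsewhere thus have values in OE2 more widely, and how many other genes below the filter were higher in OE2 without overlap was not counted.

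CBF3 (chromosome 4, 13018010 to 13019400) was highest in tt19-8. Its levels were 0.679, 0.564 and 0.421 FPKM in tt19-8, or 32, 25 and 22 fragments by the steps and about 49, 38 and 34 by annotated length. They were 0.113, 0.261 and 0.101 FPKM in OE1, or 5, 12 and 5 fragments by the steps, and 0.205, 0.299 and 0.144 FPKM in OE2. All tt19-8 libraries were above all libraries of both lines, and the lines overlapped. Among genes tested, 13.3% in OE1 and 27.7% in OE2 were lower than tt19-8 without overlap. The CBF3 mean was 0.285 times that of tt19-8 in OE1 and 0.389 times in OE2. The exact two-sided permutation p was 0.1 in both, again the smallest possible. When limma was run without the filter, the adjusted p of CBF3 was 0.436 in OE1 and 0.0736 in OE2, so CBF3 did not pass.

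Summed over the 3 CBF genes, tt19-8 libraries held 0.700, 0.737 and 0.440 FPKM and OE2 libraries 0.885, 0.675 and 0.378 FPKM. OE1 libraries held 0.135, 0.365 and 0.1199 FPKM. The sum overlapped between OE2 and tt19-8 and was lower in OE1 than in both, while CBF3 made up most of it in tt19-8 and in OE2 CBF2 was above CBF3 in replicates 1 and 3 and below it in replicate 2.

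Around the 9 genes, 115 upstream factors, relatives and targets in 11 lists gave 91 genes that could be tested. The lists were chosen with earlier results of these data known, so their shares are a description and no test of the lists. In OE2 against tt19-8, 10 of the 91 genes rose and 7 fell, or 10.99% and 7.69%, against 4.08% and 9.8% of all genes. With median-ratio scaling of the libraries 14 were higher and 3 lower, and without the filter 7 were higher and 0 lower of 114. None was called in OE1 against tt19-8, where 15 had an unadjusted p under 0.05. Among the genes that rose, ZAT8 and ERF2 passed the filter through OE2 alone, and WRKY75 through OE2 and OE1 replicate 1. Of the 17 calls in OE2, ELF4 and TCH2 held in every alternative. Leaving out OE2 replicate 1, 2 or 3 ended 15, 7 or 14 of them, and leaving out tt19-8 replicate 1 or 2 ended 9 or 15, whereas leaving out tt19-8 replicate 3 ended 0 and brought the calls to 17 higher and 18 lower. Running without the filter ended 11 of the 17 calls, median-ratio scaling 4, the replicate number in the fit 3, and a fit with neither trend nor robust 2.

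Of 9 CBF upstream factors tested, 3 fell and 0 rose in OE2 against tt19-8, with a median log2 change of -0.47 against -0.18 for all genes. CAMTA2, a calmodulin-binding activator of the CBF genes, was at 7.78, 9.74 and 9.03 FPKM in OE2 and at 24.1, 26.0 and 12.6 FPKM in tt19-8. In OE1 it was at 9.21, 12.2 and 11.1 FPKM. CAMTA2 fell in OE2 by 1.09 on the log2 scale (limma adjusted p 0.0233). OST1, a kinase that acts on the CBF inducer ICE1, fell by 0.61 (adjusted p 0.0483), and PIF7, a repressor of CBF genes in long days, fell by 0.59 (adjusted p 0.0461). OST1 and PIF7 were no longer called with median-ratio scaling, which left 1 call and a median of -0.29, or with the replicate number in the fit, and without the filter none of the 3 was. In OE1, where they were not called, CAMTA2, OST1 and PIF7 also lay below every tt19-8 library, as did 13.3% of all genes tested. Neither of the 2 CBF relatives tested was called.

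Of 9 CBF targets tested, 2 rose and 0 fell, with a median of 0.57 against -0.18 for all genes. RD29A, a cold and drought gene with C-repeat elements, was at 36.3, 27.3 and 32.7 FPKM in OE2 and 18.8, 12.5 and 5.94 FPKM in tt19-8. It rose by 1.42 (limma adjusted p 0.0228). The call ended without the filter, and when OE2 replicate 1, OE2 replicate 3 or tt19-8 replicate 2 was left out. COR47, a dehydrin, was at 52.4, 40.5 and 46.0 FPKM in OE2 and 26.5, 16.4 and 18.4 FPKM in tt19-8, a rise of 1.16 (limma adjusted p 0.010). That call ended when OE2 replicate 1 or tt19-8 replicate 2 was left out. In OE1 the median of these 9 targets was 0.49 and none was called. RD29A is also induced by abscisic acid and drought without CBF proteins.

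Of 6 ZAT relatives tested, 2 rose and 0 fell. ZAT8 was at 1.63, 1.06 and 1.73 FPKM in OE2, at 0.273, 0 and 0.351 FPKM in tt19-8, and listed at 0 in all OE1 libraries. It rose by 1.03 (limma adjusted p 0.0161) but passed the filter through OE2 alone. ZAT6, a zinc finger factor of stress and phosphate responses, rose by 0.86 (adjusted p 0.0348), and ZAT6 was not called without the filter. None of the 5 genes of the reactive oxygen list was called, with a lowest adjusted p of 0.0797.

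Of 16 WRKY relatives tested, 1 rose and 4 fell, with a median of 0.04. WRKY17, a defence repressor, was at 34.6, 38.5 and 36.0 FPKM in OE2 and 82.2, 110 and 57.0 FPKM in tt19-8, and fell by 1.12 (limma adjusted p 0.0158). WRKY26 fell by 1.13 (adjusted p 0.0183), WRKY15 by 0.77 (0.0313) and WRKY6 by 0.56 (0.0488). In OE1 WRKY17 was at 46.6, 52.2 and 47.8 FPKM. These 4 genes were not called in OE1 but lay below every tt19-8 library there too, as did 13.3% of all genes tested. With median-ratio scaling 2 relatives were higher and 2 lower, with WRKY6 and WRKY15 no longer called, and without the filter 1 was higher and 0 lower. WRKY75, a factor of phosphate starvation and senescence, rose by 0.96 (adjusted p 0.0167) and passed the filter through OE2 and OE1 replicate 1. Of 4 WRKY33 targets, ACS6, an ethylene synthesis enzyme, rose by 0.94 (adjusted p 0.0178), with a list median of 0.36. The camalexin pathway genes PAD3, CYP71A12 and CYP71A13 had changes of 0.15, -0.51 and 0.57 and were not called.

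Of 7 ERF relatives tested, 2 rose and 0 fell. ERF2, a GCC-box activator, was at 1.63, 1.34 and 2.78 FPKM in OE2 and 0.701, 0.447 and 0.108 FPKM in tt19-8. It rose by 1.03 (limma adjusted p 0.0246), but passed the filter through OE2 alone. Its relative ERF1A rose by 0.84 (adjusted p 0.0307). Without the filter neither was called. None of the 10 genes of the MAP kinase module, which acts above WRKY33 and ERF6, was called, with a median of -0.22.

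Of 14 touch and wound early genes tested, TCH2 alone rose and none fell. TCH2, a calmodulin-like protein, was at 12.2, 10.8 and 7.97 FPKM in OE2 and 3.82, 1.92 and 2.81 FPKM in tt19-8, a rise of 1.56 (limma adjusted p 0.0047). Of 9 clock genes, ELF4, a component of the evening complex, rose by 1.81 (adjusted p 0.00156), from 4.64, 3.27 and 6.46 FPKM in tt19-8 to 19.7, 17.0 and 19.96 FPKM in OE2. The other 8 clock genes were not called.

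**Figure D4:**
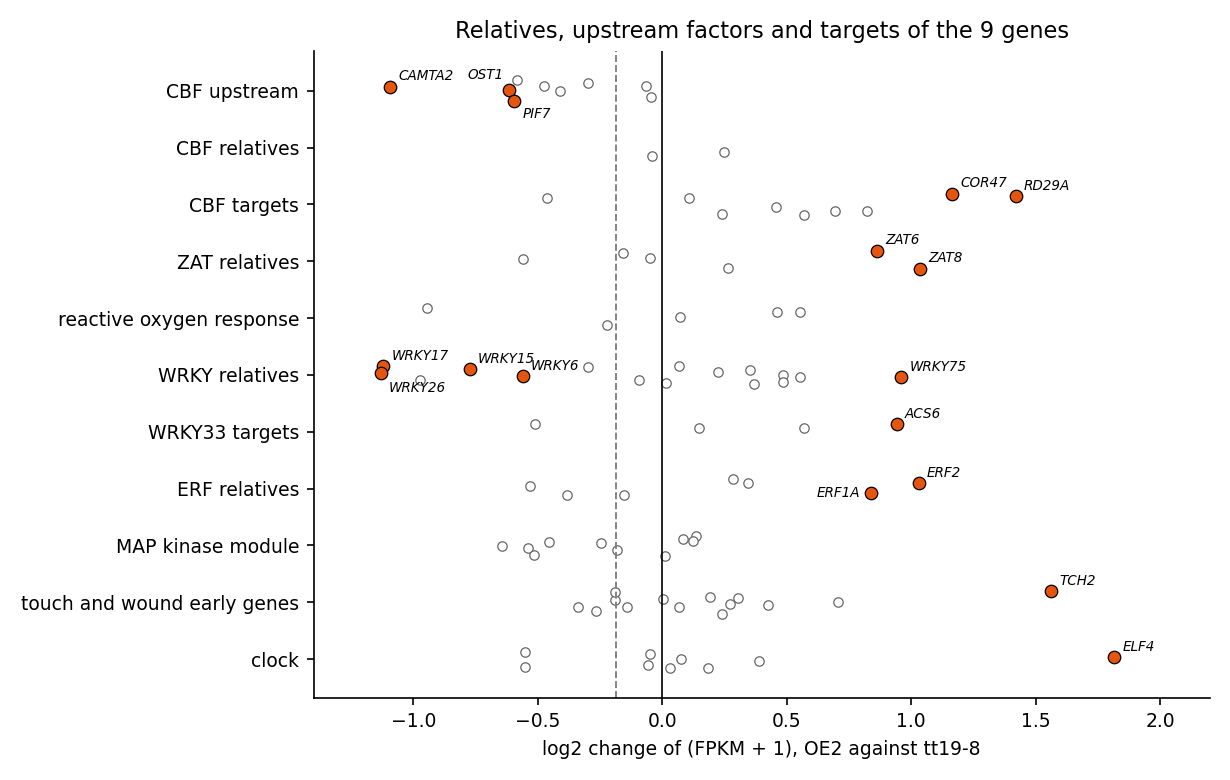
Log2 change of (FPKM + 1) in OE2 against tt19-8 for the 91 tested genes of the 11 lists, 1 row per list. Filled, named points passed an adjusted p of 0.05 by limma, open points did not, and the dashed line is the median of all genes. The 10 filled points on the right include ELF4 at 1.81 and TCH2 at 1.56, and the 7 on the left include WRKY26 and WRKY17.

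The mean pattern of the 6 tested members across the 9 libraries was most like that of AT4G01610 (Pearson r 0.92), AT1G28190 (0.91), BCS1 (0.91), ALDH12A1 (0.91) and AT1G22610 (0.91), among 12606 genes with a mean of at least 5 FPKM. Over the 6 OE1 and tt19-8 libraries alone r was 0.93, 0.96, 0.93, 0.92 and 0.90. These values describe the 9 libraries, of which OE1 and OE2 are linked in pairs.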

How the data were processed

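RNA sequencing of 9 libraries gave 1 value per gene and library, deposited by the authors in FPKM. Per the submitters' processing notes, HISAT 0.1.6, edgeR and the build TAIR10 were used, with roles not given in the sources used here. Gene lengths and totals behind the FPKM are not stated either. Symbols, positions and promoter sequences came from TAIR10.1 (RefSeq), to which 32835 of 33602 identifiers matched.

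The test was limma 3.58.1 (R 4.3.3) on log2(FPKM + 1), which understates changes of low genes, with trend and robust on. The fit covered the 18232 genes that reached 1 FPKM in 3 or more libraries, on the 6 libraries of the groups compared. P-values were adjusted by Benjamini-Hochberg over all genes tested, and called under 0.05 whatever the fold. The fit was tested on simulated data with independent libraries, which does not cover the link between OE1 and OE2. A fit of all 9 libraries was an alternative, because OE1 and OE2 libraries are linked. Deviations from group means correlated at 0.95, 0.96 and 0.96 across genes between same-numbered OE2 and OE1 libraries, so the numbers pair these, and at -0.06 to 0.04 with tt19-8, where they do not. The CBF genes, below the filter, were compared by exact permutation tests, which took no account of the OE1 and OE2 pairs. Depth was read from whole-fragment steps in 9610 single-exon genes, and floors cover counting error only.

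The members and the gene lists were chosen with earlier results of these data known. Genes named from each list were the called ones, or those with the smallest unadjusted p, up to 4 a list. The alternatives were the fit of all 9 libraries, the replicate number in the fit, a pseudocount of 0.1 FPKM, no filter, a mean of at least 5 FPKM, median-ratio scaling, neither trend nor robust, and leaving out each replicate. Tables and figures used Python 3.11.15, numpy 2.4.6, pandas 2.3.3, scipy 1.17.1, Biopython 1.88 and matplotlib 3.10.9.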

Additional observations from a re-analysis of the deposited data

Results flagged for a closer look

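ZAT12 and ERF5 differed between the overexpressing lines once the replicate number was in the limma fit. ZAT12 was higher in OE2 than in OE1 by 1.49 (adjusted p 0.0025) and ERF5 by 0.45 (adjusted p 0.00831) on the log2(FPKM + 1) scale, each in 3 of 3 same-numbered pairs. Both comparisons rest on libraries that are linked by number, and 66.5% of all genes were called in that fit.

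Around the members, 4 list genes differed between the lines without the replicate number, in the limma test of OE2 against OE1. RD29A was higher in OE2 by 1.67 (adjusted p 0.0466), ZAT8 by 1.296 (adjusted p 0.0228), ELF4 by 1.24 (adjusted p 0.048) and ACS6 by 0.69 (adjusted p 0.0484). ZAT8 was listed at 0 in all OE1 libraries. Leaving out 1 library ended each of these calls in all 6 cases, except that RD29A stayed called without OE1 replicate 2. RD29A and ACS6 were also not called with all 9 libraries in 1 fit, and with a pseudocount of 0.1 FPKM ZAT8 alone was called. Without the filter, or with a mean of at least 5 FPKM, RD29A and ELF4 were not called.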

How the results depend on the processing

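The single call among the members, ZAT12 in OE2 against tt19-8, remained past the threshold in every alternative that tested it. With a mean of at least 5 FPKM, 2 members were tested and 0 called. Without tt19-8 replicate 3 the members called were 3, ZAT12, ERF5 and ZAT10, and without any other single library 1. In OE2 against OE1 the members called were 0, and became 1 (ZAT12) with all 9 libraries in 1 fit, with median-ratio scaling, and with neither trend nor robust. With the replicate block they became 2, ZAT12 and ERF5. The block changed no member's call in the other comparisons, where the numbers do not pair the samples.

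Over all genes, OE1 against tt19-8 gave 0 calls by limma (2550 at an unadjusted p under 0.05), 3 with all 9 libraries in 1 fit, 5 with the replicate block, and 0 to 1657 when 1 library was left out, the highest without tt19-8 replicate 3. OE2 against tt19-8 gave 2531, then 1019 with no filter and 1615 with median-ratio scaling. Scaling moved the split from 744 higher and 1787 lower to 1020 higher and 595 lower, and the median of all genes from -0.18 to -0.02. Leaving out 1 library gave 339 to 6074, the lowest without tt19-8 replicate 2 and the highest without tt19-8 replicate 3. OE2 against OE1 gave 315, then 12118 with the replicate block, 181 with a pseudocount of 0.1 FPKM, 694 with no filter and 23 with a mean of at least 5 FPKM. Leaving out 1 library gave 2 to 98. The cause of these shifts was not tested.

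Among the members and the named list genes, signs turned only for changes that were not called. With median-ratio scaling, ZAT10 in OE2 against OE1 was 0.0173, ERF6 in OE2 against tt19-8 0.103 and RAP2.1 there 0.129. With 1 library left out, the ranges that crossed 0 were, in OE2 against OE1, -0.12 to 0.039 for ZAT10 and -0.37 to 0.21 for WRKY33. In OE1 against tt19-8 they were -0.066 to 0.31 for ZAT12, -0.51 to 0.038 for WRKY33, -0.12 to 0.24 for ERF5, -0.029 to 0.39 for DREB2A, -0.66 to 0.10 for RD29A, -0.18 to 0.22 for ZAT5, -0.23 to 0.22 for WRKY75, -0.70 to 0.0086 for CYP71A13, -0.041 to 0.30 for ERF2, -0.27 to 0.00078 for MKK2 and -0.0010 to 0.33 for LUX. In OE2 against tt19-8 they were -0.28 to 0.12 for ERF6, -0.085 to 0.011 for RAP2.1, -0.13 to 0.31 for PAD3 and -0.10 to 0.91 for CYP71A13. Depth limits the CBF genes most, with at most 32 fragments by the steps, or about 49 by annotated length, in any OE1 or tt19-8 library.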

Other observations

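GOLS3, a galactinol synthase gene among the CBF targets that was below the filter, was at 0.257, 0.455 and 0.773 FPKM in tt19-8, at 0.229, 0 and 0.041 FPKM in OE1 and at 0.229, 0.027 and 0.059 FPKM in OE2. All tt19-8 libraries were above all libraries of both lines, as for CBF3, which was also below the filter. Among genes tested, 13.3% in OE1 and 27.7% in OE2 were lower than tt19-8 without overlap. The OE1 and OE2 libraries are linked by number, so the lines do not give separate results. GOLS3 was singled out after its values were seen.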
